A study of Macaca mulatta with 12 samples.

Results

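TRBV28 is one of the variable (V) gene segments of the T cell receptor beta chain (TRB), and the clonotypes built on it were followed here in mononuclear cells from the blood of rhesus macaques. A clonotype was a distinct CDR3 nucleotide sequence, and it was counted as TRBV28 where that gene was the first V hit of its row. The 8 libraries taken after infusion held 2294 TRBV28 clonotypes of 205011 in all, and the 4 baseline libraries held 2 of 164. Clonotypes were chosen by V gene and then split by their share of counts, at 0.1% of a library. The 6 clonotypes at or above that limit in any post-infusion library are called dominant clones here, and all others form the background. Because the dominant clones were selected on their share, those shares are given as a description and were not tested.

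The post-infusion libraries carry the names Amazo, Nebula and Rocket. They were labelled day -5 (n = 3) and day -4 (n = 3), with 1 further Nebula library at day 0 and 1 further Amazo library at day +3. All 3 animals received apoptotic donor leukocytes (ADLs), which are white cells of a donor treated so that they die, on day -7 and, per the series text, day 1, counted from a planned transplant. A figure legend of the study places the second infusion on day 0 instead. Day -5 and day -4 thus fell 2 and 3 days after the first infusion, day 0 fell 7 days after it, and day +3 fell 2 days after the second by the labels. Per the study's methods the infused monkeys differed from the donor at MHC class I, shared 1 DRB allele with it, were neither diabetic nor transplanted, and received a transient course of an antibody against CD40, rapamycin, etanercept and tocilizumab. The baseline libraries (n = 4) carry other animal names, no infusion or drug is given for them in the labels, and they are called baseline 1 to 4. Genotype and age were not given in the labels, and the tables held TRB clones only, so the labelled cell type was not checked against marker genes.

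The beta chain gene of each T cell is assembled by joining a V segment to a D segment and a J segment, with bases trimmed from the segment ends and others added between them. The CDR3 spans that junction, lies at the centre of the antigen binding surface and is shared by all cells descended from the same rearrangement, so that it serves as a tag of a T cell clone. The J segments lie in a pair of clusters. TRBD1 lies upstream of the TRBJ1 cluster and can join to either cluster, whereas TRBD2 lies between them and joins to the TRBJ2 cluster by the usual deletion.

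Within the CDR3 the TRBV28 segment, read from the 177 productive clonotypes in which its end was untrimmed (167 of them identical over this stretch), contributed 16 bases, and the last 3, which the clones below had lost in part or whole, are in capitals.
TRBV28 end: tgtgccagcagttTAT

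The 6 dominant clones are shown in order of their highest share, because 5 of them made up most TRBV28 counts in 4 libraries. Capitals mark the bases between the V end and the J start, which hold any D bases and the added bases.
clone 1: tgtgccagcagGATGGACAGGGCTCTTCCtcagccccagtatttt
clone 2: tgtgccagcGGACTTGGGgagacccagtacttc
clone 3: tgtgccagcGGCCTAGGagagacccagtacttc
clone 4: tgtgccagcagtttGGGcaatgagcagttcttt
clone 5: tgtgccagcGGAACAGGGGGGttt
clone 6: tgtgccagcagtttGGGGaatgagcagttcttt

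Clone 1 joined TRBD1 to TRBJ1-5 in a CDR3 of 45 bases. Clone 2 joined TRBD2 to TRBJ2-5 and clone 3 used TRBJ2-5 with no D hit, both in 33 bases. Clones 4 and 6 used TRBJ2-1 with no D hit, also in 33 bases. Clone 5 joined TRBD1 to TRBJ1-1 in 24 bases and kept only 3 bases of the J segment. The V end had lost 7 bases in clones 2, 3 and 5, 5 bases in clone 1 and 2 bases in clones 4 and 6. Thus 4 of the 6 had the same CDR3 length of 33 bases, and the gap between V and J ran from 3 bases in clone 4 to 18 in clone 1.

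Clones 2 and 3 encoded the same 11 residues. They differed at 3 bases (A12C, T15A and G18A, clone 2 first, counted from 1 at the 5′ end of the CDR3), each the last base of a codon. Clones 4 and 6 also encoded the same 11 residues and differed by 1 base (C18G). Clone 6 was therefore rated a near copy in 4 libraries, that is 1 base from a larger clone of the same V gene and length. It is still counted as a clone of its own here. By V gene, J gene and CDR3 residues the 6 dominant clones were therefore 4. In the 4 libraries that held both, clone 3 had 0.810 to 0.959 times the counts of clone 2, and clone 6 had 0.405 to 0.568 times the counts of clone 4.

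Total counts ran from 42695 (Nebula day -4) to 556954 (Rocket day -5) after infusion and from 63 to 74 at baseline. One count made up 1.35% to 1.59% of the baseline libraries, so the 0.1% limit could not be applied there. The median count of a background TRBV28 clonotype ranged from 2 (Nebula day -4) to 14 (Rocket day -5), and PCR copies are not independent molecules, so the 95% Wilson intervals and the floor of 3 counts used below cover counting error only. TRBV28 was assigned with no rival gene in all but 1 of the post-infusion rows.

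The libraries did not sort by animal name. The library labelled Amazo day -5 shared 44 TRBV28 clonotypes with Rocket day -4, which were 9.17% of its own and 8.94% of the other's, and 29 with Rocket day -5. It shared 5 with the library labelled Amazo day -4 (1.04% of its own and 2.82% of the other's). Of those 44, 39 were background clonotypes, whereas 1 of the 5 was. Rocket day -5 and Rocket day -4 shared 23, and Amazo day -5 and Amazo day +3 shared 25. The 3 Nebula libraries shared 7 to 11 among themselves, and 0 to 4 with any library of another name. Results that compare day -5 with day -4 therefore rest, for Amazo, on libraries that held different clones, and their values without it are given beside them.

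TRBV28 took a large share of counts in 4 libraries and a small one in the other 4. It made up 4.50% of counts in the library labelled Amazo day -5 (interval 4.43% to 4.56%), 4.87% in Amazo day +3, 5.31% in Rocket day -5 and 4.47% in Rocket day -4. The share was 0.764% in Amazo day -4, 0.824% in Nebula day -5, 0.675% in Nebula day -4 (interval 0.601% to 0.757%) and 0.830% in Nebula day 0. The libraries with a high share held it at ranks 5 to 7 among 58 to 61 V genes by counts, and those with a low share at ranks 35 to 38 among 58 to 61. In bulk samples such as these, fewer cells and less receptor RNA per cell cannot be told apart.

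**Figure D1:**
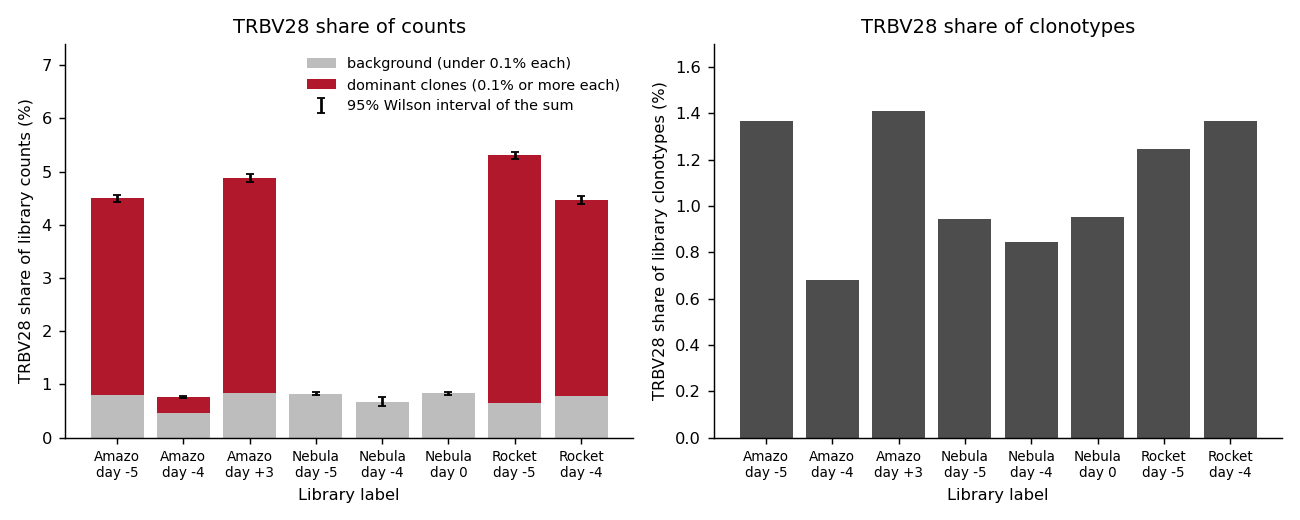
Left, TRBV28 share of library counts (%) in the 8 post-infusion libraries, with bars split into background clonotypes (grey) and dominant clones (red) and the 95% Wilson interval of the sum. Right, TRBV28 share of library clonotypes (%). The background took 0.461% to 0.846% of every library, and dominant clones made up 82.0% to 87.7% of TRBV28 counts in Amazo day -5, Amazo day +3 and both Rocket libraries.

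The gap between the high and low libraries came with the dominant clones. They made up 82.0% of TRBV28 counts in Amazo day -5, 82.6% in Amazo day +3, 87.7% in Rocket day -5 and 82.5% in Rocket day -4. The library labelled Amazo day -4 held 1 dominant clone with 39.6% of its TRBV28 counts, and the 3 Nebula libraries held 0. The background was narrower, at 0.807%, 0.846%, 0.650% and 0.780% of counts in the same 4 libraries, 0.461% in Amazo day -4 and 0.824%, 0.675% and 0.830% in Nebula at day -5, day -4 and day 0.

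By number of clonotypes the spread was smaller than that of the whole TRBV28 share of counts, but not smaller than that of the background. TRBV28 made up 1.37% of clonotypes in Amazo day -5 (480 clonotypes), 1.41% in Amazo day +3 (352), 1.25% in Rocket day -5 (213) and 1.37% in Rocket day -4 (492). It made up 0.680% in Amazo day -4 (177), 0.942% in Nebula day -5 (286), 0.844% in Nebula day -4 (153) and 0.951% in Nebula day 0 (290). The same 4 libraries were therefore highest by clonotypes as by counts, with TRBV28 at ranks 29 and 30 among V genes in them and 33 to 38 in the others.

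Clone 1 (TRBD1, TRBJ1-5) was the largest TRBV28 clone. Its share was 1.46% in Amazo day -5, 1.57% in Amazo day +3, 2.09% in Rocket day -5 and 1.65% in Rocket day -4. It had 5 counts in Amazo day -4, 4 in Nebula day -5, 3 in Nebula day 0 and 0 in Nebula day -4, where 3 counts were 0.00703%. The levels thus fell into a group above 1% and a group at a few counts.

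Clone 2 (TRBD2, TRBJ2-5) followed the same pattern, at 0.830%, 0.957%, 1.01% and 0.868% in Amazo day -5, Amazo day +3, Rocket day -5 and Rocket day -4. It had 1 count in Amazo day -4 and 0 in the 3 Nebula libraries. Clone 3, which encodes the same residues, stood at 0.796%, 0.842%, 0.915% and 0.703%, with 1 count in Nebula day -5 and 0 in the other 3. Their sum reached 1.63%, 1.80%, 1.93% and 1.57%, above clone 1 in Amazo day -5 and day +3 and below it in both Rocket libraries.

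Clone 4 (no D hit, TRBJ2-1) stood at 0.399%, 0.467%, 0.442% and 0.296% in the same 4 libraries, with 1 count in Nebula day -5. Clone 6, which differs from it by 1 base, stood at 0.202%, 0.189%, 0.198% and 0.168%, with 1 count in Amazo day -4. Clones 1, 2, 3, 4 and 6 were thus found together in 4 libraries. In clone 1 both Rocket libraries lay above both of those labelled Amazo, and in the other 4 clones the values of the 2 names overlapped. Clone 5 (TRBD1, TRBJ1-1) was the exception: it made up 0.302% of Amazo day -4 (interval 0.286% to 0.320%), had 6 counts in Amazo day -5 and 0 in the other 6 libraries.

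**Figure D2:**
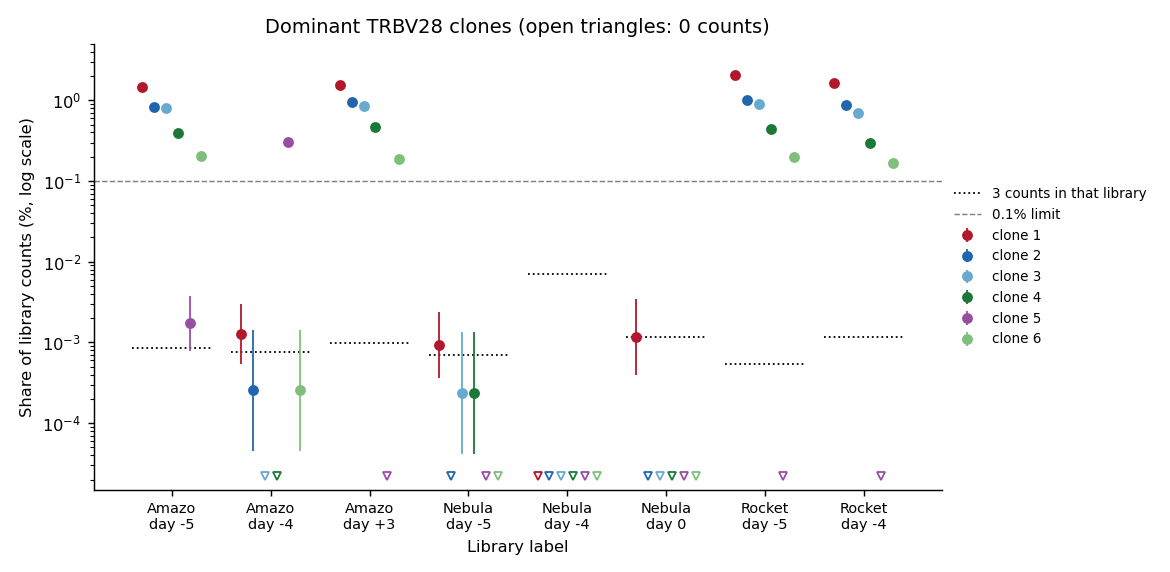
Share of library counts (%, log scale) of the 6 dominant TRBV28 clones in each post-infusion library, with 95% Wilson intervals. Open triangles mark 0 counts, dotted lines the share that 3 counts make up and the dashed line the 0.1% limit. Clones 1, 2, 3, 4 and 6 sit above the limit in the same 4 libraries, and clone 5 in Amazo day -4 alone.

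Just inside the limit stood clone 6, with a highest share of 0.202%. Just outside stood clone 7 (TRBD2, TRBJ2-1, 63 bases), at 0.0586% in Amazo day +3, and clone 8 (TRBD1, TRBJ1-4, 45 bases), at 0.0517% in the same library. Both were again in Amazo day -5, Amazo day +3 and the Rocket libraries, where clone 7 stood at 0.0316%, 0.0586%, 0.0454% and 0.0447%. No clone lay between 0.0586% and 0.202% at its highest. Clone 9, chosen after its values were seen, joined TRBD2 to TRBJ2-4 and its 11 residues differed from those of clones 2 and 3 at 1 position. It had 49, 90, 184 and 64 counts in the 4 libraries and 0 in the others.
clone 7: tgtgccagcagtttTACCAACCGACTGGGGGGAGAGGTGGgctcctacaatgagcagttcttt
clone 8: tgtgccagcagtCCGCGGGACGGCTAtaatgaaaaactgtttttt
clone 9: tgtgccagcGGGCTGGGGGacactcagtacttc

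In Nebula the largest TRBV28 clonotype was the same at all 3 times. It used TRBJ1-2 with no D hit in 30 bases and is shown because it was the highest in a repertoire with 0 dominant TRBV28 clones.
Nebula clonotype: tgtgccagcagtGCCCTAACTAGGaccttc
Its share was 0.0183% at day -5, 0.0328% at day -4 (14 counts) and 0.0283% at day 0, and it had 0 counts in the other 5 libraries. The largest background clonotype of Amazo day -4 reached 0.00662% (26 counts).

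The V-D-J combinations that the study lists for TRBV28 were nearly all 1 clone each where they were large. The study chose them on these samples. TRBD1 with TRBJ1-5 took 1.5% of counts in Amazo day -5, 1.61% in Amazo day +3, 2.12% in Rocket day -5 and 1.69% in Rocket day -4, and clone 1 made up 97.4% to 98.8% of it. It took 0.0558% in Amazo day -4, 0.0535% in Nebula day -5, 0.0281% in Nebula day -4 and 0.0604% in Nebula day 0, spread over 6 to 23 clonotypes of which the largest made up 9.13% to 25%. The combination was therefore present in all 8 libraries, and its dominant clone in 4.

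TRBD2 with TRBJ2-5 took 0.852%, 0.962%, 1.02% and 0.884% in the 4 libraries with clone 2. It took 0.0107% in Amazo day -4, 0.0127% in Nebula day -5, 0.00155% (4 counts) in Nebula day 0 and 0 of 42695 counts in Nebula day -4, which allows a share of up to 0.00703%. TRBJ2-5 with no D hit took 0.807%, 0.850%, 0.929% and 0.710% in the 4 libraries with clone 3. It took 0.00306% in Amazo day -4 and 0.0192%, 0.00703% and 0.0136% in Nebula at day -5, day -4 and day 0. Together the 3 combinations made up 70.3%, 70.3%, 76.6% and 73.5% of TRBV28 counts in the first 4 libraries and 5.21% to 10.4% in the others.

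The study asked whether clones changed in frequency after the infusions, and day -5 and day -4 are the times at which all 3 names have a library. TRBV28 stood at 4.50% and then 0.764% in the libraries labelled Amazo, at 5.31% and 4.47% in those labelled Rocket, and at 0.824% and 0.675% in those labelled Nebula. Day -5 had a mean of 3.54% ± 2.39 and day -4 a mean of 1.97% ± 2.16 (SD, n = 3 each), and the later library was lower in 3 of 3 names. Without the Amazo pair the mean difference was -0.495 percentage points rather than -1.57. With all clones of at least 0.1%, of any V gene, left out, it was -0.301 points of the remaining counts. As a share of all counts, background TRBV28 went from 0.807% to 0.461% in Amazo and from 0.824% to 0.675% in Nebula. In Rocket it rose from 0.650% to 0.780%. For the whole TRBV28 share of counts, the exact two-sided sign-flip permutation test gave p = 0.25, the smallest that 3 pairs allow. After Benjamini-Hochberg adjustment over the 5 day -5 to day -4 measures tested this way it was 0.75. The groups overlapped, and TRBV28 was picked for description with earlier results on these libraries known.

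In a quasi-likelihood test of edgeR on counts per V gene, with the name as a block, TRBV28 changed by -1.08 ± 0.56 on the log2 scale (SE), with an adjusted p of 0.627. The test called 0 of 57 V genes (percent called 0%, and 0 at an unadjusted p under 0.05). Without the Amazo libraries TRBV28 changed by -0.35, with an adjusted p of 0.0432, and was 1 of 4 V genes called among 56 (7.14%). On the 57 V genes of the full comparison the same 2 names gave -0.34 and an adjusted p of 0.331, with 0 V genes called, so the call rested on which genes were tested.

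Of the 13 TRBV28-J pairs tested by edgeR, 11 had lower counts at day -4 and 0 were called, against 0 of 701 V-J pairs in all (percent called 0%, and 11 at an unadjusted p under 0.05). The median change was -0.62 on the log2 scale over the 13 pairs and 0.00 over all pairs. The most negative were TRBJ2-5 (-2.75 ± 1.51, SE), TRBJ1-5 (-1.93 ± 1.09) and TRBJ2-1 (-1.65 ± 1.03), the J segments of clones 1, 2, 3, 4 and 6. Each had an adjusted p of 0.924 in the edgeR test. Without Amazo 10 of the 13 pairs were lower, with a median of -0.33 and 0 called. The values were then -0.87 ± 0.38 for TRBJ2-5, -0.71 ± 0.33 for TRBJ1-5 and -0.44 ± 0.27 for TRBJ2-1 (SE, edgeR adjusted p = 0.981 for each). The most negative pair was then TRBJ1-3 (-0.90 ± 0.47), and the largest change was a higher value for TRBJ2-3 (1.01 ± 0.42). Neither J segment was used by a dominant clone, and each pair had an edgeR adjusted p of 0.981.

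Clone by clone, the values differed by name. From Rocket day -5 to Rocket day -4 all 5 dominant TRBV28 clones had a lower share, from 1.16-fold lower for clone 2 to 1.49-fold lower for clone 4. None of the 5 was at least 2-fold lower, against 1 of 52 dominant clones of all V genes (1.92%), and 0 of 52 were at least 2-fold higher. The median change was -0.34 on the log2 scale over the 5 and -0.28 over the 47 dominant clones of other V genes. With 1 library a time there is no test of these changes.

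From Amazo day -5 to Amazo day +3, 0 of 5 dominant TRBV28 clones moved by 2-fold, against 5 of 49 dominant clones of all V genes that were at least 2-fold lower (10.2%) and 0 that were higher. Clone 4 was 1.17-fold higher and clone 6 was 1.07-fold lower, the ends of the range. Between the libraries labelled Amazo day -5 and Amazo day -4, 5 of 6 dominant TRBV28 clones were at least 2-fold lower, against 47 of 81 in all (58.0%), and clone 5 was at least 2-fold higher, against 34 of 81 (42.0%). Together these cover all 81 dominant clones of that pair. Clone 1 had 5090 counts in the first and 5 in the second, and clones 3 and 4 had 2771 and 1389 counts and then 0. With the later library set at the floor of 3 counts, clones 3 and 4 were at least 1041-fold and 522-fold lower. In Amazo day +3 clones 1, 3 and 4 had 4773, 2556 and 1416 counts. As given above, the libraries labelled Amazo day -5 and Amazo day -4 held different clones.

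The number of TRBV28 clonotypes showed no common direction. Drawn to the depth of the smallest library (42695 counts), the expected number changed from 135 to 216 between the Rocket libraries, from 182 to 153 between the Nebula libraries and from 225 to 112 between the Amazo libraries. The means were 180 ± 45.2 for day -5 and 161 ± 52.3 for day -4 (SD, n = 3 each, exact sign-flip permutation p = 0.75). The share of clonotypes went from 1.19% ± 0.219 to 0.963% ± 0.358 (SD, n = 3 each, exact p = 0.75). Without Amazo both differences turned positive, at 26.6 clonotypes and 0.0090 percentage points over 2 names.

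At baseline the depth limited what could be seen. TRBV28 had 1 count of 73 in baseline 1, 1 of 70 in baseline 4 and 0 of 63 and of 74 in the other 2, which allows shares of up to 4.76% and 4.05%. The mean was 0.700% ± 0.808 (SD, n = 4). Its difference from day -5 gave an exact two-sided permutation p = 0.171 and that from day -4 an exact p = 0.343, where 4 against 3 libraries cannot go below 0.0571. Both have a Benjamini-Hochberg adjusted p of 0.343 over the 2 comparisons. All 6 dominant clones had 0 counts in the 4 baseline libraries, a share of 3 counts being 4.05% to 4.76% there. The pair of baseline clonotypes used TRBJ2-7 with no D hit in 33 bases and TRBD1 with TRBJ1-5 in 51 bases, and neither sequence was in any post-infusion library.

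Beneath the dominant clones lay a diverse background that was described by productive clonotypes (in frame, with no stop), each counted once, 150 to 461 a library. The CDR3 of background TRBV28 clonotypes was shorter than that of other V genes in 8 of 8 libraries, with library means of 41.9 to 42.7 bases against 43.2 to 43.7. Averaged within each name and then over the 3 names, the difference was -1.06 ± 0.098 bases (SD, n = 3). With each clonotype weighted by its count it was -0.80 bases, and 1 of 8 libraries was higher. Short CDR3s of at most 36 bases made up 16.3% to 23.3% of background TRBV28 clonotypes against 10.4% to 12.2% of the others, higher in 8 of 8 libraries. Long ones of at least 51 bases made up 5.99% to 11.3% against 9.68% to 11.7%, lower in 7 of 8. CDR3s of exactly 33 bases, the length of clones 2, 3, 4 and 6, made up 4.79% to 7.33% (median 6.93%) against 2.85% to 3.32%, and were more frequent in 8 of 8 libraries. From day -5 to day -4 the background mean went from 42.5 ± 0.173 to 42.2 ± 0.288 bases (SD, n = 3 each, exact sign-flip permutation p = 0.5), and without Amazo the difference was -0.035 bases.

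**Figure D3:**
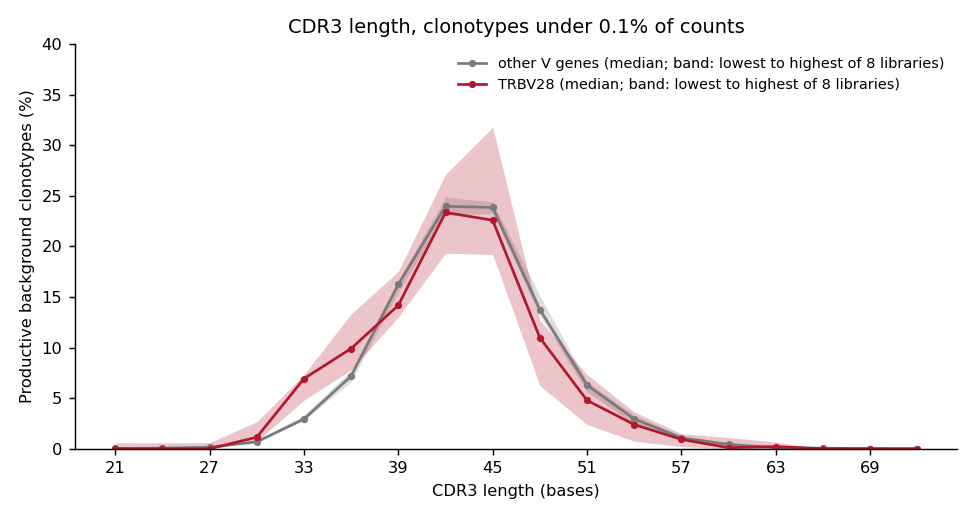
Share of productive background clonotypes (%) by CDR3 length in bases for TRBV28 (red) and all other V genes (grey). Lines are medians and bands run from the lowest to the highest of the 8 post-infusion libraries. At 33 bases the TRBV28 libraries lie between 4.79% and 7.33%, all above the 2.85% to 3.32% of the other V genes.

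TRBV28 also lost more of its own end. A mean of 3.57 to 3.93 bases had been removed from background TRBV28 segments, against 2.67 to 2.95 in other V genes, higher in 8 of 8 libraries by 0.99 ± 0.065 bases (SD over 3 names). Removal of 4 bases was the most frequent state (18.5% of 2181 distinct background clonotypes), and 9.26% kept the whole end. Clones 2, 3 and 5 had lost 7 bases, which 5.87% of the background had. The stretch between V and J was shorter in 6 of 8 libraries, with a mean difference of -0.278 ± 0.142 bases (SD over 3 names). That value was -0.0063 with clonotypes weighted by count, where 4 of 8 libraries were higher, and -0.659 with all reading frames. A comparison added after seeing the data used the 42 other V genes with the same number of germline bases in the CDR3 (16), whatever their sequence. Against these, trimming was higher by 0.91 bases and the CDR3 shorter by a difference of -1.27 bases.

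J pairing of the background leaned to the TRBJ1 cluster. TRBJ2 segments were used by 44.3% to 57.3% of background TRBV28 clonotypes and by 58.0% to 65.3% of the others, lower in 8 of 8 libraries by a mean difference of -11.4 ± 1.44 percentage points (SD over 3 names). Among V genes with at least 50 background clonotypes (45 to 51 a library), TRBV28 had the lowest to the 7th lowest TRBJ2 share. It ranked 5th to 12th lowest for CDR3 length and 35th to 48th from the lowest for bases removed. From day -5 to day -4 the TRBJ2 share went from 52.7% ± 6.61 to 48.1% ± 4.20 (SD, n = 3 each, exact sign-flip permutation p = 0.5), a difference of -4.65 percentage points that was -1.25 without Amazo.

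TRBJ1-2 was the J segment with the highest ratio of TRBV28 to other V genes, at 9.58% to 16.3% of background TRBV28 clonotypes against 6.83% to 8.74% of the others, higher in 8 of 8 libraries with a mean ratio of 1.59. TRBJ1-6 (ratio 1.31) and TRBJ1-5 (ratio 1.29) were each higher in 6 of 8. The TRBJ1-5 share reached 18% in the library labelled Amazo day -4 and was 6.67% to 10.1% in the other 7. The lowest ratios were those of TRBJ2-3 (0.551), TRBJ2-5 (0.691) and TRBJ2-2 (0.737), each lower in 8 of 8 libraries. TRBJ2-3 made up 3.65% to 7.25% of background TRBV28 clonotypes against 8.55% to 11.3% of the others. Across the 13 J segments the TRBV28 median ran from 2.90% (TRBJ2-6) to 11.7% (TRBJ2-7), and TRBJ2-4 and TRBJ2-7 were higher in 4 libraries and lower in 4. TRBJ2-5, the J segment of clones 2 and 3, was thus less used in the background than by other V genes, at 3.33% to 8.33% against 7.92% to 8.84%.

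**Figure D4:**
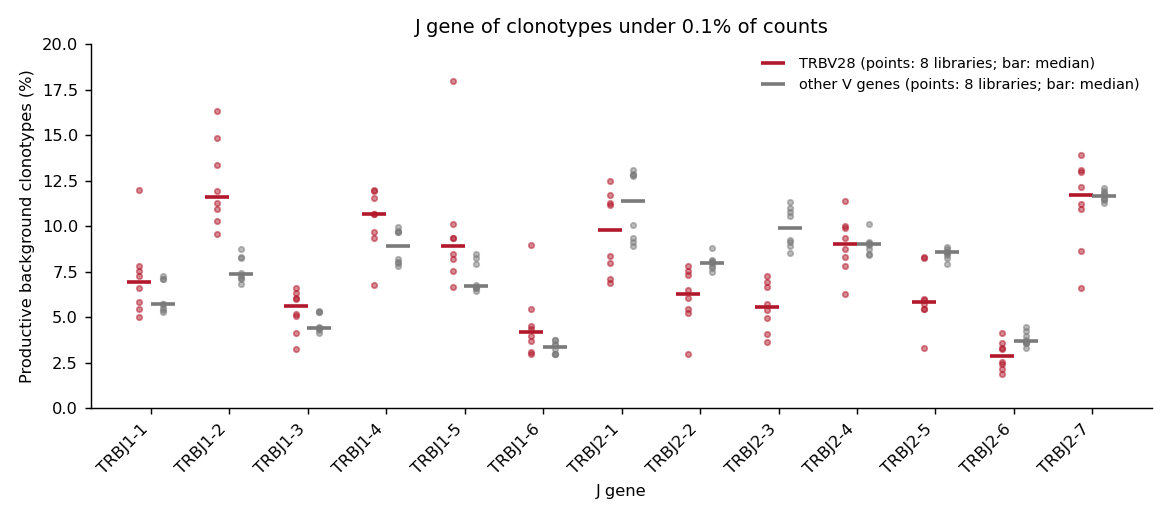
J segment usage as the share of productive background clonotypes (%) for TRBV28 (red) and all other V genes (grey), with 1 point a library and a bar at the median of 8. TRBJ1-2 lies higher in TRBV28 in all 8 libraries, and TRBJ2-3, TRBJ2-5 and TRBJ2-2 lie lower in all 8.

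D pairing shifted the same way. Among background clonotypes with a D hit, TRBD2 made up 15.9% to 24.4% with TRBV28 and 30.1% to 34.4% with other V genes, lower in 8 of 8 libraries by a mean difference of -10.5 ± 0.222 percentage points (SD over 3 names). With each clonotype weighted by its count the difference was -5.29 percentage points, and 1 of 8 libraries was higher. Within clonotypes that used TRBJ2, where either D segment can be used, TRBD2 made up 21.4% to 37.1% of D hits with TRBV28 and 41.0% to 46.3% with other V genes, again lower in 8 of 8. Within clonotypes that used TRBJ1 it made up 9.26% to 16.3% against 11.9% to 13.6%, higher in 5 and lower in 3. The share with no D hit was 20.7% to 30.0% against 24.0% to 26.7%, lower in 5 of 8. A short D remnant can match either segment, so a D hit is less certain than a V or J hit.

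**Figure D5:**
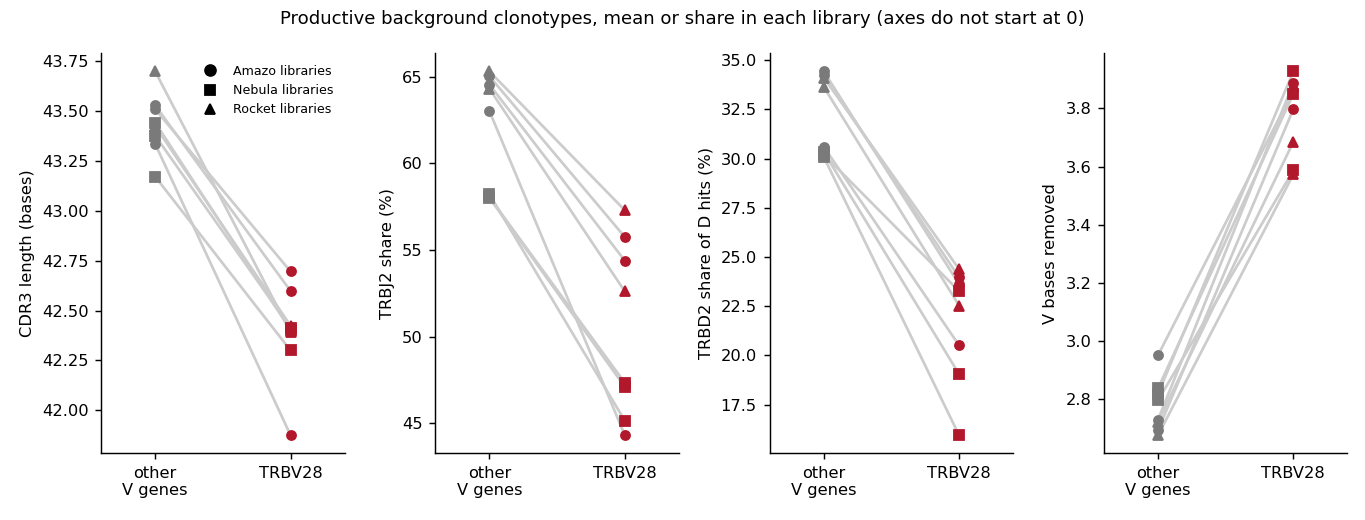
Mean CDR3 length (bases), TRBJ2 share (%), TRBD2 share of D hits (%) and mean V bases removed in productive background clonotypes, with 1 marker a library (circle Amazo, square Nebula, triangle Rocket) and a line joining TRBV28 to the other V genes of the same library. In each of the 4 panels all 8 lines run the same way. The axes do not start at 0.

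Each of these 5 differences (length, TRBJ2 share, TRBD2 share, bases removed and the stretch between V and J) had an exact two-sided sign-flip permutation p of 0.25 over the 3 names, the smallest the design allows, and 0.25 after Benjamini-Hochberg adjustment. The 8 libraries are not independent, since several share clones. Amazo and Rocket libraries are among them, so the 3 names are not independent units either. The SD over names may therefore understate the spread. The differences in length, TRBJ2 share, TRBD2 share and trimming lay on the same side in the library labelled Amazo day -4, in the Nebula libraries and in the 4 libraries with clones 1, 2, 3, 4 and 6.

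Nonproductive rearrangements were less frequent in TRBV28. They made up 1.96% to 7.51% of TRBV28 clonotypes (3 to 27 a library) and 5.40% to 11.2% of the others, lower in 8 of 8 libraries, and this difference was not tested. Within a library 0.671% to 4.30% of productive TRBV28 residue sequences were encoded by 2 or more clonotypes, against 0.669% to 2.98% of the others. The residues of clones 2 and 3 were also found in 1 clonotype with TRBV12-4 (8 counts) and those of clones 4 and 6 in 1 with TRBV7-6 (10 counts), both in Amazo day +3.

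The V genes whose share of counts was most like that of TRBV28 across the 8 libraries were TRBV9 (Pearson r = 0.994 on the log2 scale), TRBV5-3 (r = 0.987) and TRBV12-4 (r = 0.986), out of 57 compared, whose median r was -0.02. TRBV9 stood at 10.3%, 10.1%, 13.6% and 11.9% in Amazo day -5, Amazo day +3, Rocket day -5 and Rocket day -4 and at 2.94% to 3.53% in the other 4. TRBV12-4 stood at 0.400% to 0.511% and 0.124% to 0.158%. These correlations describe the step between the same 2 sets of 4 libraries, which share clones within the first set and counts that sum to a fixed total within each library.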

How the data were processed

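TRB transcripts of 12 libraries were analysed from the tables that the authors deposited, 1 clone table a library. Per the series text, reads were trimmed with Trimmomatic and passed to MiXCR, which built the clones with rhesus TRB segments as reference. The study's methods describe collapsing by molecular barcode and a 0.5% clone threshold, but the deposited counts hold far smaller clones and no barcode column. The deposited count is a whole number, not normalized, and the deposited fraction is that count over the file total.

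Here TRBV28 clonotypes were those with TRBV28 as first V hit. Bases trimmed, V end and J start came from the reference points in the file. Chromosome positions were not used here. The members and lists were chosen with earlier results of these data known. The rule for named items was the first 12 clones of at least 0.1% by highest share, the 3 J segments with the highest and lowest usage ratio, the 3 V genes most correlated with TRBV28 and the study's V-D-J combinations.

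Day -5 and day -4 were paired by animal name. Deviations of same-named libraries over 57 V genes correlated at 0.855 (Nebula), 0.924 (Rocket) and -0.044 (Amazo); the names come from the labels. Single values were tested with exact permutation tests (scipy 1.17.1). Counts per V gene or V-J pair were tested with edgeR 4.0.16 in R 4.3.3 (TMM scaling, a minimum of 10 counts in 3 or more libraries). Adjustment was by Benjamini-Hochberg, with calls below 0.05. The same fit was also run on simulated counts without differences between animals, which says nothing about its power on these libraries. DESeq2 1.42.0 was an alternative. Python 3.11.15, numpy 2.4.6, pandas 2.3.3 and matplotlib 3.10.9 were used. Other alternatives were clonotypes of at least 2 counts, unshared V hits, residue-level clonotypes, limits of 0.05%, 0.5% or none, other reading frames, no near copies, weighting by count, no scaling, no filter, no replicate block and leaving out each library or name.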

Additional observations from a re-analysis of the deposited data

How the results depend on the processing

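Over 15 results, 157 of 162 alternative values were rated as unchanged. For values tested by permutation this meant the same direction. For TRBV28 counts in edgeR or DESeq2 it meant the same direction and side of the threshold. For TRBV28-J pairs it meant that 0 were called, and for the number of dominant clones a similar number. Many of these values could not have changed side, so the total does not measure stability. Leaving out each name in turn gave changes from day -5 to day -4 of -0.393 to 0.0090 percentage points in the TRBV28 share of clonotypes and of -70.5 to 26.6 in clonotypes at equal depth, both positive only without the Amazo pair. For TRBV28 among V genes it gave log2 changes of -1.49 to -0.34 in the edgeR test. Without Amazo the change was -0.35 with an adjusted p of 0.0432 over 56 V genes, and the value was -0.34 with 0.331 over the 57 V genes of the full comparison, a setting added after seeing the data. Without Nebula it was -1.47 (adjusted p 0.189), and DESeq2 gave an adjusted p of 0.387. The change in background CDR3 length turned to 0.301 bases when all reading frames were counted, and the cause was not tested. With a limit of 0.5% the dominant clones were 3 rather than 6, by construction, with 0.05% they were 8, and by residues 4 (limits and definition added after seeing the data).

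Without the replicate block, that is without pairing by name, the exact permutation test gave p = 0.2 for the TRBV28 share of counts, and the edgeR test gave a log2 change of -0.93 with an adjusted p of 0.981; it changed no call. The tests of single values could not go below 0.25 with 3 names, so they say nothing about stability, and the day 0 and day +3 libraries had no replicate. At baseline, 0 counts of 63 to 74 still allow a clone a share of up to 4.05% to 4.76%.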
